A study of Mus musculus with 4 samples.

Results

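The 9 genes described here encode the meiotic and mitotic subunits of the cohesin complex: Rec8, Rad21l, Rad21, Stag3, Stag1, Stag2, Smc1b, Smc1a and Smc3. They were picked as the known subunits of the complex and found by gene symbol, each symbol had 1 entry in the deposited count table, and they are 9 of its 55421 genes. Gene expression was measured by mRNA sequencing in 4 libraries of primary spermatogonial stem cell (SSC) cultures, which had been started from the testes of neonatal CD1 mice and kept on irradiated mouse embryonic fibroblast feeder cells. The 2 libraries named Veh came from cultures held in complete SSC medium. The 2 libraries named NRRA came from cultures given nutrient restriction (NR), a medium made mostly of Earle's balanced salt solution, together with retinoic acid (RA). The labels give N2 supplement, bFGF and GDNF for both groups and name no altered allele. Since the salt solution replaced most of the complete medium in NRRA, these supplements were diluted with it by the study's recipe, and their dilution cannot be told apart from the loss of other nutrients. None of the 4 libraries was given NR alone or RA alone, so the effects of NR and of RA cannot be told apart either. The feeder cells remained in the cultures, so that every library holds RNA of germ cells and of fibroblasts. The question put to the 9 genes was whether each meiotic subunit changed relative to its mitotic paralog between Veh and NRRA.

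Cohesin is a ring that holds sister chromatids together and also extrudes chromatin loops. An SMC1 protein and SMC3 form its arms, a kleisin closes the ring, and a STAG protein binds the kleisin. Germ cells that enter meiosis add versions of their own, namely the kleisins REC8 and RAD21L, the STAG protein STAG3 and the SMC1 protein SMC1B. These are part of the axes of meiotic chromosomes, whereas RAD21, STAG1, STAG2 and SMC1A serve mitotic cells and SMC3 is shared by all complexes.

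The libraries held between 28022265 and 31604769 counts, so that a count of 3, used as the floor, corresponded to 0.0921 to 0.111 CPM (counts per 1000000 counts). Values in CPM are scaled to library sizes adjusted by TMM, a normalisation that balances the bulk of genes between libraries. Log2 fold changes are NRRA over Veh from edgeR's quasi-likelihood test, given with their standard error (SE), and p-values were adjusted by Benjamini-Hochberg over 20232 genes. The study describes its sequencing replicates as independent biological ones, whereas the labels do not say which cultures the libraries came from, so the p-values measure the spread between these libraries. That spread was small, with a common biological coefficient of variation of 2.61%, and 56.4% of all genes tested passed the threshold of 0.05. Stra8, the retinoic acid target that gates meiotic entry, stood at 9.62 and 10.1 CPM in Veh and at 1864 and 1853 CPM in NRRA, which matches the labels.

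Markers of cell types were counted at the same threshold, at which 27.9% of all genes tested were higher in NRRA and 28.4% lower. The 6 markers of undifferentiated spermatogonia were all lower in NRRA, with summed levels of 1385 to 1399 CPM in Veh and 283 to 288 CPM in NRRA. Of 6 general germ cell markers 2 were higher and 3 lower, and their summed level was 1549 to 1617 CPM in Veh and 1703 to 1709 CPM in NRRA. Of 10 fibroblast markers 1 was higher and 8 were lower, with summed levels of 8418 to 8518 CPM in Veh and 6558 to 6707 CPM in NRRA. Most of that sum was Fn1, at 6143 and 6087 CPM in Veh and 4362 and 4352 CPM in NRRA, and without it the sums overlapped, at 2331 and 2375 CPM in Veh and 2207 and 2345 CPM in NRRA. Col3a1 was the marker that was higher, at a log2 fold change of 0.61. Markers of other cells were low throughout: 34.3 to 37.7 CPM in Veh and 15.7 to 16.3 CPM in NRRA for Sertoli cells, 32.7 to 34.8 and 26.4 to 27.4 CPM for macrophages, 7.15 to 7.63 and 9.04 to 9.12 CPM for Leydig cells, and 4.28 to 4.71 and 2.95 to 3.29 CPM for later spermatocytes and spermatids. In each of these lists but that of macrophages some markers were below 1 CPM in every library: Amh, Gata4 and Rhox8 of 5 for Sertoli cells, Cyp11a1, Insl3 and Hsd3b1 of 4 for Leydig cells, and Pgk2, Acrv1 and Prm1 of 5 for later germ cells. Others were not: Sox9 of the Sertoli list stood at 27.1 and 29.4 CPM in Veh and 9.33 and 9.43 CPM in NRRA, Star of the Leydig list at 6.97 to 8.78 CPM, and Csf1r of the macrophage list at 18.8 to 20.8 CPM. In bulk libraries, fewer cells of a type and less RNA per cell cannot be told apart, and the part of these markers in the results on cohesin was not tested.

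Of the 9 cohesin genes, 5 were higher in NRRA (Rec8, Stag3, Smc1b, Rad21 and Stag1), against 27.9% of all genes tested. A further 3 were lower (Smc3, Stag2 and Smc1a), against 28.4% of all genes, and Rad21l did not pass the test. Rec8 was the 1 member that changed at least 2-fold, which 6.29% of all genes did upwards and 7.02% downwards. The libraries of the groups did not overlap for 8 of the 9 members, as for 76.7% of all genes. The median log2 fold change of the 9 was 0.16, beside 0.00029 over all genes. The falls of Stag2 and Smc1a were small, and with DESeq2, without the filter on low counts, or without scaling beyond library size the count of lower members was 1, Smc3.

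**Figure D1:**
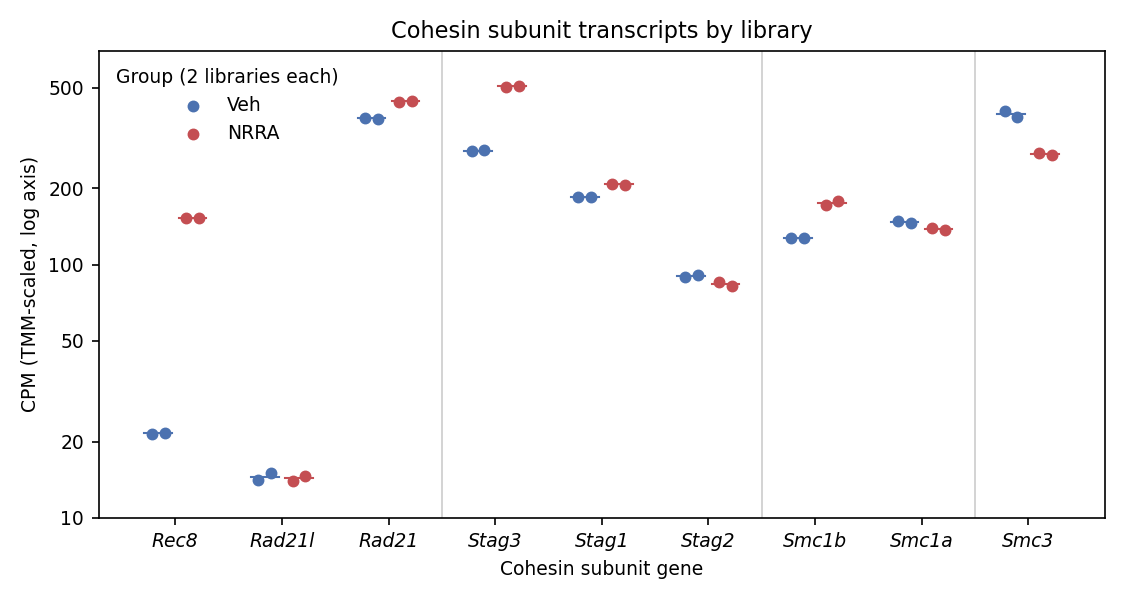
Level of each of the 9 cohesin subunit genes in CPM on a log axis, with 1 point per library, a line at the mean of each group of 2, and grey lines between the kleisins, the STAG proteins, the SMC1 proteins and Smc3. Rec8 moved from 21.6 to 153 CPM on average, Rad21l overlapped between the groups, and Smc3 was lower in both NRRA libraries.

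The members lie on 7 chromosomes (GENCODE M21, GRCm38, the build that the authors' processing notes name as mm10). Rec8 is at chr14:55618037-55625395 on the plus strand, Rad21l at chr2:151645404-151668533 on the minus strand and Rad21 at chr15:51962240-51991747 on the minus strand. Stag3 is at chr5:138280240-138312393, Stag1 at chr9:100597798-100959375 and Stag2 at chrX:42149317-42277185, all on the plus strand. Smc1b is at chr15:85064689-85131964 on the minus strand, Smc1a at chrX:152016428-152062694 and Smc3 at chr19:53600398-53645833, both on the plus strand. No exon of these genes overlaps another gene, except that 0.338% of the exonic bases of Stag2 overlap Gm37564 on the opposite strand. Near-identical stretches in other genes cover 3.03% of the longest Smc3 transcript and 2.31% of that of Stag3.

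The stretch upstream of the start is shown for the meiotic members and for the mitotic paralog of Smc1b, because a common question about genes of a complex is what their promoters share. The set of RefSeq promoters used here (GRCm38.p6) had an entry for 7 of the 9 members, all but Rad21 and Stag2. The 250 bases before each start were searched on both strands. The letters searched were AGGTCA, the half-site of retinoic acid receptors, its direct repeats with spacers of 5 (DR5) and 2 bases (DR2), CNCCTCAG, a motif of STRA8, TCCCGC, bound by E2F6, a repressor of germ cell genes, and CACGTG, an E-box. The TCCCGC letters were in the windows of Rec8, Smc1b, Stag1 and, on the opposite strand, Smc3, and in 16.9% of all 32817 windows. The CACGTG letters were in the window of Stag3 and in 6.02% of all windows. None of the 7 windows held AGGTCA (14.0% of all windows), CNCCTCAG (6.41%) or a DR5 or DR2 (0.00914% each), which says only that these letters are not in these windows. Of the members whose windows held TCCCGC, Rec8, Smc1b and Stag1 were higher in NRRA and Smc3 was lower. Whether these letters play any part in these cells was not tested.
Rec8, 121 bases before the GENCODE start, plus strand, chr14:55617916-55618036: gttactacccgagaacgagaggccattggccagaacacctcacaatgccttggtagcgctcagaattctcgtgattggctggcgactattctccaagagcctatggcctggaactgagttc
Rec8, with TCCCGC in capitals, 38 to 33 bases before the RefSeq start, plus strand, chr14:55618116-55618145: gtgtgcacctgaTCCCGCtggagggcgaca
Stag3, with CACGTG in capitals, 170 to 165 bases before the RefSeq start, plus strand, chr5:138280327-138280356: cgcgctggagccCACGTGacaggactgcac
Smc1b, with TCCCGC in capitals, 47 to 42 bases before the RefSeq start, minus strand, chr15:85131958-85132207: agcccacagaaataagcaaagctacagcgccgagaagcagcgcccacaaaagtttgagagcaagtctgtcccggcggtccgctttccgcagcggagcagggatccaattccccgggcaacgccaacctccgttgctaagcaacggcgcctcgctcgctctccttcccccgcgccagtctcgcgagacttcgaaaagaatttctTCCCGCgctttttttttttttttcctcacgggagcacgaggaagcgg
Smc1a, no match, plus strand, chrX:152016178-152016427: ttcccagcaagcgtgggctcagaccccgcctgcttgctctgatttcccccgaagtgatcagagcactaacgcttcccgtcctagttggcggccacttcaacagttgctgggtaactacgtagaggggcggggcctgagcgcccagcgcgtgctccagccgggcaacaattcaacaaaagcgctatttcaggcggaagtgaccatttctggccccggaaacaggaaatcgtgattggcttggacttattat
Rad21l, no match, minus strand, chr2:151668534-151668783: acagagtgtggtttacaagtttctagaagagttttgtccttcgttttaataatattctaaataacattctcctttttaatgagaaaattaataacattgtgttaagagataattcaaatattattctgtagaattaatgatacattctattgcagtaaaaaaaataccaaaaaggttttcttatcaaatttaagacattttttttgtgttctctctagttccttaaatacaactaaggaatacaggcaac

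These windows also differed in base composition. The Rad21l window held 25.6% G and C and 1 CpG, whereas the median over all windows was 52.4% and 6 CpG. The Smc1b window held 58.0% G and C with 25 CpG, and that of its mitotic paralog Smc1a held 56.8% with 16 CpG. The Rec8 window held 56.0% with 10 CpG, that of Stag3 62.8% with 26 CpG, that of Smc3 64.4% with 26 CpG and that of Stag1 71.2% with 31 CpG. The GENCODE start of Rec8 lies upstream of the RefSeq start, so that its TCCCGC letters fall inside a GENCODE exon, as does the whole Stag3 window. The RefSeq start of Stag1 lies 45650 bases downstream of its GENCODE start, so that its window, letters and base composition belong to a stretch inside the gene and outside GENCODE exons, and which start these cells use was not tested.

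Among the kleisins, Rec8 rose 7.10-fold while Rad21l did not pass the test. Rec8 stood at 21.5 and 21.6 CPM in the Veh libraries (584 and 644 counts) and at 153 CPM in both NRRA libraries (4994 and 4615 counts). Both NRRA libraries were far above both Veh libraries, and the libraries within each group were nearly equal. The log2 fold change was 2.83 (SE 0.046, adjusted p = 1.43e-25 by edgeR), which ranked 143 of the 20232 genes, with 0.70% of them above it. REC8 is the kleisin that separase must cleave for homologous chromosomes to part.

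Rad21l, the kleisin of early meiotic prophase, stood at 14.1 and 15.0 CPM in Veh (383 and 446 counts) and at 13.9 and 14.7 CPM in NRRA (454 and 442 counts). The groups overlapped, with means of 14.6 ± 0.614 and 14.3 ± 0.525 CPM (SD, n = 2 each). The log2 fold change was -0.026 (SE 0.092, adjusted p = 0.835 by edgeR), it was 0.063 when libraries were scaled by their size alone, and its sign also turned without the second Veh library (0.017) or the first NRRA library (0.016). These data thus show no direction for Rad21l, and the SE leaves room for a small change either way.

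Rad21, the mitotic kleisin, rose by much less than Rec8. It stood at 379 and 377 CPM in Veh and at 441 and 445 CPM in NRRA, without overlap. The log2 fold change was 0.23 (SE 0.025, adjusted p = 1.22e-08 by edgeR), or 1.17-fold. Feeder fibroblasts express mitotic subunits too, and the share of Rad21 counts that came from germ cells cannot be told apart from theirs.

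Among the STAG proteins, which bind the kleisin and help place the ring on chromatin, the meiotic Stag3 rose most. Stag3 stood at 281 and 283 CPM in Veh and at 505 and 508 CPM in NRRA. The NRRA libraries were 1.80-fold higher with no overlap, at a log2 fold change of 0.84 (SE 0.025, adjusted p = 4.56e-20 by edgeR), and 8.90% of all genes rose more. Stag3 was thus well expressed in Veh, unlike Rec8.

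Stag1, a mitotic paralog associated with telomeric cohesion, stood at 186 CPM in both Veh libraries and at 209 and 206 CPM in NRRA. Its log2 fold change was 0.16 (SE 0.030, adjusted p = 4.14e-05 by edgeR). Stag2, the other mitotic paralog, associated with centromeric cohesion, stood at 89.0 and 91.2 CPM in Veh and at 85.5 and 82.4 CPM in NRRA. Its groups did not overlap, but they lay within a few CPM of each other. The log2 fold change of Stag2 was -0.10 (SE 0.041, adjusted p = 0.0356 by edgeR), and the call was lost with DESeq2 (adjusted p = 0.150) and without any 1 of the second Veh, the first NRRA or the second NRRA library (values from -0.12 to -0.077).

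Among the SMC1 proteins, the meiotic Smc1b rose and the mitotic Smc1a was slightly lower. Smc1b, which is needed to keep meiotic chromosome axes and cohesion, stood at 128 and 127 CPM in Veh and at 173 and 179 CPM in NRRA. Its groups were well apart, at a log2 fold change of 0.46 (SE 0.033, adjusted p = 4.17e-12 by edgeR), or 1.38-fold. Smc1a stood at 148 and 145 CPM in Veh and at 140 and 137 CPM in NRRA. Its groups did not overlap, and its log2 fold change was -0.087 (SE 0.033, adjusted p = 0.0278 by edgeR), but 0.0024 when libraries were scaled by size alone. The call for Smc1a was also lost with DESeq2 (adjusted p = 0.119) and without any 1 of the first Veh, the first NRRA or the second NRRA library (values from -0.096 to -0.074).

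Smc3, the arm that mitotic and meiotic cohesin share, fell. It stood at 406 and 384 CPM in Veh and at 276 and 270 CPM in NRRA, 1.45-fold lower in the latter. The log2 fold change was -0.53 (SE 0.029, adjusted p = 1.11e-14 by edgeR), and 83.9% of all genes had a higher one. Smc3 kept this direction and its call under every alternative tried, with values from -0.57 to -0.44.

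The subunits were then compared as ratios within each library, which no scaling of libraries alters apart from the small prior count. The difference between groups carries an SE combined from the edgeR errors of the genes of a pair, as if these varied independently. Of the 6 pairs compared, 5 set a meiotic subunit against a mitotic one and 1 set the meiotic kleisins against each other. For each pair all 4 combinations of an NRRA with a Veh library gave the same sign, and the exact two-sided permutation test gave p = 0.333 (0.333 after adjustment over the 6 pairs), the smallest that 2 against 2 libraries allow. Sizes and errors rather than this p therefore carry the comparison.

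The log2 ratio of Rec8 to Rad21 was -4.13 and -4.12 in Veh and -1.52 and -1.54 in NRRA. The libraries of a group agree closely, and the ratio rose 6.05-fold, a difference of 2.60 (SE 0.052, library pairs from 2.58 to 2.61). The log2 ratio of Rad21l to Rad21 was -4.74 and -4.65 in Veh and -4.98 and -4.91 in NRRA. It moved the other way, by -0.25 (SE 0.095, library pairs from -0.33 to -0.17), with Rad21 called higher and Rad21l not called. The meiotic kleisins thus parted, and the ratio of Rec8 to Rad21l rose 7.20-fold, a difference of 2.85 (SE 0.10) on the log2 scale.

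For Stag3 over Stag1 the log2 ratio was 0.60 and 0.61 in Veh and 1.27 and 1.30 in NRRA, a difference of 0.68 (SE 0.039), or 1.61-fold. For Stag3 over Stag2 it was 1.66 and 1.63 in Veh and 2.56 and 2.62 in NRRA, a difference of 0.95 (SE 0.048), or 1.93-fold. Stag3 therefore gained on both of its mitotic paralogs. For Smc1b over Smc1a the log2 ratio was -0.22 and -0.20 in Veh and 0.31 and 0.38 in NRRA, a difference of 0.55 (SE 0.047), or 1.47-fold. On the CPM scale, which is not adjusted for gene length, Smc1a was ahead in both Veh libraries and Smc1b in both NRRA libraries. Per kilobase of exon the SMC1 pair did not change order, with mean ratios of Smc1b to Smc1a of 1.23 in Veh and 1.81 in NRRA.

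**Figure D2:**
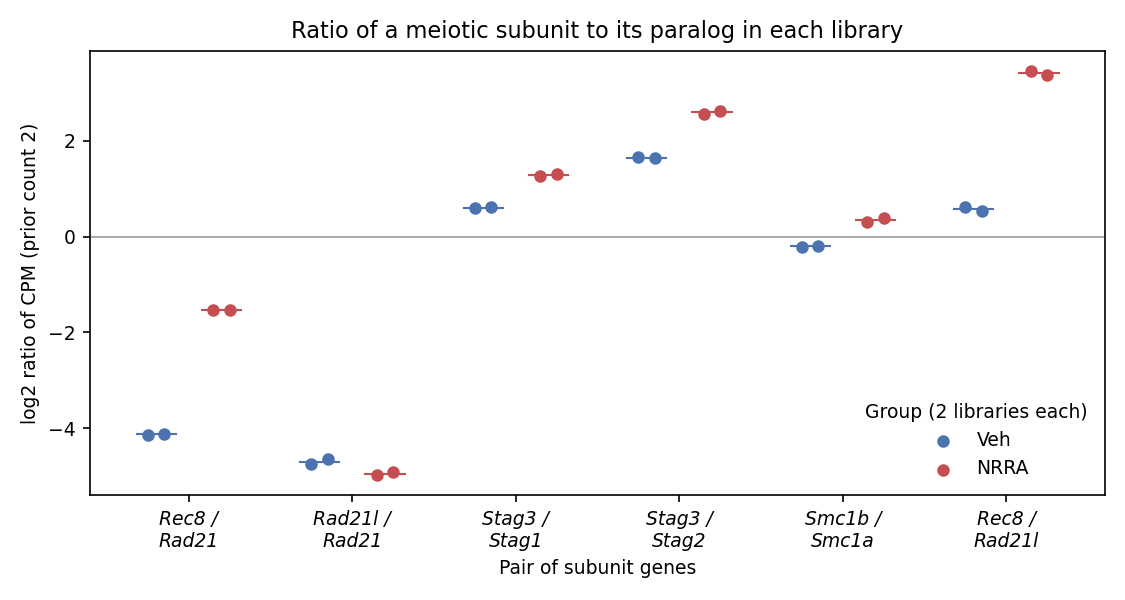
Log2 ratio of CPM for 6 pairs of cohesin subunit genes, with 1 point per library and colours for the groups of 2 libraries. The ratio of Rec8 to Rad21 rose by 2.60 and that of Smc1b to Smc1a by 0.55, whereas that of Rad21l to Rad21 moved by -0.25.

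Levels of different genes were compared as CPM per kilobase of exon. On this per-length scale Rad21 led in both groups, at 89.4 ± 0.308 in Veh and 105 ± 0.651 in NRRA (SD, n = 2 each). In Veh it was followed by Smc3 (71.3), Stag3 (49.2), Smc1b (31.4), Smc1a (25.5), Stag1 (15.8), Stag2 (10.9), Rad21l (8.77) and Rec8 (7.36). In NRRA the order was Stag3 (88.3), Rec8 (52.2), Smc3 (49.2), Smc1b (43.4), Smc1a (24.0), Stag1 (17.6), Stag2 (10.1) and Rad21l (8.63). Rec8 moved from the last place to the third and Smc3 from the second to the fourth, and neighbours in either order did not overlap between libraries. With the length of the longest transcript in place of all exonic bases, Rec8 came before Rad21l in Veh and Stag1 before Smc1a in NRRA.

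Within the kleisins, Rec8 made up 6.96% and 6.99% of the per-length level in Veh and 31.7% and 31.4% in NRRA. Rad21l went from 8.07% and 8.56% to 5.10% and 5.33%, and Rad21 from 85.0% and 84.5% to 63.2% in both. The mitotic kleisin thus stayed the most abundant in all 4 libraries. Within the STAG proteins, Stag3 went from 64.9% and 64.8% to 75.8% and 76.3%, while Stag1 went from a mean of 20.8% to 15.2% and Stag2 from 14.4% to 8.74%. Within the SMC1 proteins, Smc1b went from 55.1% and 55.4% to 63.8% and 65.0%. The meiotic STAG and SMC1 genes already held the larger share of their families in Veh, which was not so for the kleisins. For Smc1b this rests on the length used, as its share in Veh was 50.1% with the longest transcript. These shares, like the ratios above, are of the mixed culture of germ cells and feeder fibroblasts, whose parts cannot be told apart.

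**Figure D3:**
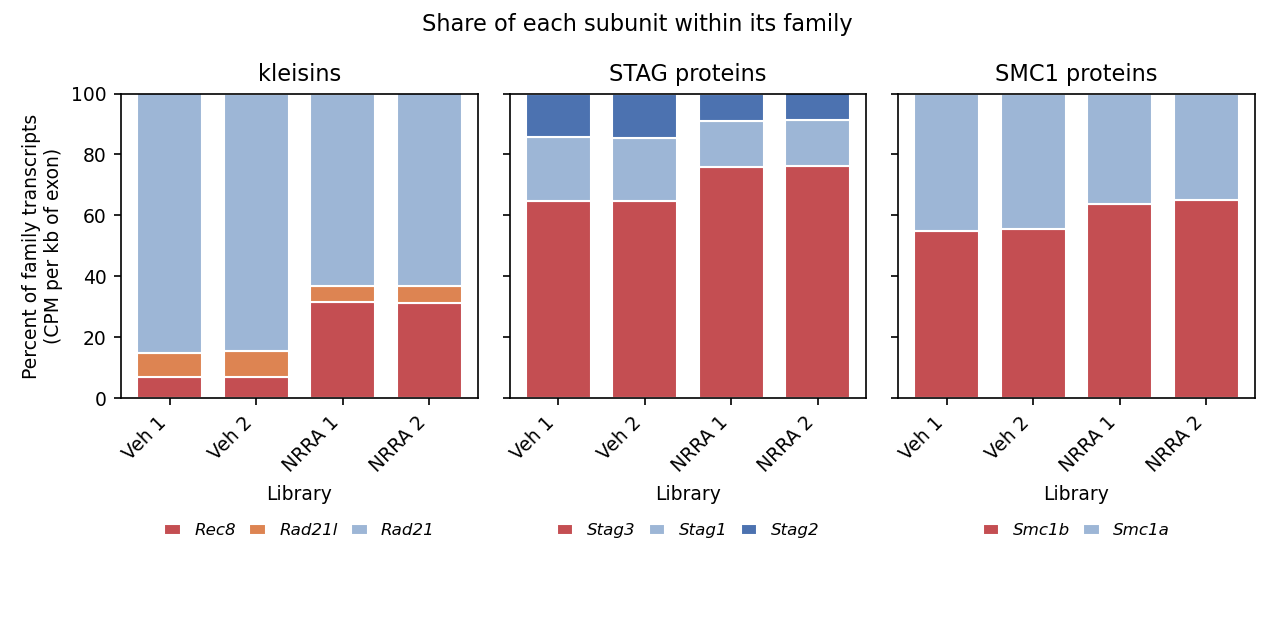
Percent of the summed CPM per kilobase of exon held by each gene within the kleisins, the STAG proteins and the SMC1 proteins, with 1 bar per library. Rec8 widened from a mean of 6.97% to 31.6% of the kleisins, Stag3 from 64.8% to 76.1% of the STAG proteins and Smc1b from 55.3% to 64.4% of the SMC1 proteins.

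The families were also set against Smc3, of which each ring holds a single copy. The summed per-length level of the kleisins was 1.48 ± 0.0582 times that of Smc3 in Veh and 3.36 ± 0.0655 times in NRRA (SD, n = 2 each). For the STAG proteins the ratio went from 1.06 ± 0.0466 to 2.36 ± 0.0312, and for the SMC1 proteins from 0.799 ± 0.0244 to 1.37 ± 0.0348. All 3 ratios were higher in both NRRA libraries than in both Veh libraries. The sums themselves rose, from 105 to 166 CPM per kilobase for the kleisins, from 75.8 to 116 for the STAG proteins and from 56.9 to 67.4 for the SMC1 proteins, while Smc3 fell. These are ratios of transcripts in the mixed culture of germ cells and feeder fibroblasts, and protein was not measured here.

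The genes whose pattern over the 4 libraries lay nearest to a meiotic subunit were found among 11317 genes by the distance between log2 CPM values centred on each gene's mean. Nearest to Rec8 was Clu (distance 0.041, log2 fold change 2.82), then Rgs10 and H2-Q2. Nearest to Stag3 were Tmem59l, Rnf103 and Pet2, at distances from 0.0090 to 0.029. Nearest to Smc1b were Syn2, Slc12a7 and Sel1l (0.012 to 0.015), and nearest to Rad21l were Coq8b, E130317F20Rik and Coa7 (0.0059 to 0.016). With 4 libraries in 2 groups these distances mostly reflect the size of the fold change.

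Of 22 regulators of cohesin, 21 were tested, of which 7 were higher, 5 lower and 9 not called, with a median log2 fold change of -0.0061. The share called was 57.1%, near the 56.4% of all genes. Sgo2b, a shugoshin gene, was not tested, with 0.0369 to 0.101 CPM. Pds5b, which binds the ring and tunes its release, stood at 179 and 181 CPM in Veh and at 228 and 216 CPM in NRRA (log2 fold change 0.30). Dscc1, part of the replication factor complex that aids cohesion, rose by 0.43 on the log2 scale. Meikin, the meiotic kinetochore protein that protects REC8 cohesin, was counted 9 and 5 times in the Veh libraries and 17 and 20 times under NRRA. Its log2 fold change of 1.25 (SE 0.53, adjusted p = 0.0497 by edgeR) rests on these few counts, and the call was lost with DESeq2 (adjusted p = 0.210) and without any 1 of the 4 libraries, at values from 0.82 to 1.79.

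The called regulators went both ways, also within a role. Nipbl, the larger part of the loader, stood at 200 CPM in both Veh libraries and at 175 CPM in both NRRA libraries (log2 fold change -0.20). Mau2, its partner in the loader, named after its values were seen, stood at 118 and 124 CPM in Veh and at 144 and 151 CPM in NRRA (0.28, adjusted p = 2.53e-07 by edgeR). Wapl, which opens the ring, stood at 329 and 335 CPM in Veh and at 283 and 275 CPM in NRRA (-0.25). Cdca5, which encodes sororin, an antagonist of WAPL, fell by 0.28 on the log2 scale. Espl1, which encodes separase, stood at 274 and 272 CPM in Veh and at 212 and 215 CPM in NRRA (-0.36). Ctcfl, the germ cell paralog of the boundary factor CTCF, changed by -0.34. Sgo2a, the shugoshin that shields REC8 from separase in meiosis, was not called (-0.047, adjusted p = 0.406 by edgeR; 0.042 when scaled by library size alone), and 35.0% of its exonic bases overlap Kctd18 on the opposite strand.

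The other SMC complexes were described for comparison. Of 8 condensin genes, whose complexes compact chromosomes, 4 were higher, 1 lower and 3 not called, with a median log2 fold change of 0.077. The share called was 62.5%, beside 56.4% of all genes (27.9% higher and 28.4% lower). Ncapg (0.39), Smc2 (0.36) and Ncapg2 (0.27) were highest and Ncaph (-0.25) lowest, while Ncaph2 (-0.0026) and Ncapd3 (0.052) were not called with TMM but were called higher when scaled by library size alone (0.087, adjusted p = 0.0204, and 0.14, adjusted p = 0.000247, both by edgeR). Ncapd3 was also called higher without the second Veh library (0.086, adjusted p = 0.0307 by edgeR), and stood at 0.018 without the first. Of 7 genes of the SMC5/6 complex, which acts in DNA repair, 3 were higher, 2 lower and 2 not called, with a median of -0.049. The share called was 71.4%, beside the same 56.4%. Smc6 (0.32), Nsmce4a (0.28) and Smc5 (0.22) rose. Eid3, the germ cell paralog of Nsmce4a, had 2.40 and 2.05 CPM in Veh and 0.983 and 1.53 CPM in NRRA (-0.83, adjusted p = 0.0119 by edgeR), and this call was lost without the first Veh or the first NRRA library (-0.71 and -0.53). Nsmce2 was lower (-0.18, adjusted p = 0.0284 by edgeR), whereas Nsmce3 did not pass the test (-0.20, adjusted p = 0.0593 by edgeR). With DESeq2 neither Eid3 nor Nsmce2 passed the threshold after adjustment (adjusted p = 0.0797 and 0.134). Nsmce2 also lost its call when scaled by library size alone (-0.087) and without the first Veh (-0.13) or the first NRRA library (-0.095). Nsmce3 was called lower without the second Veh (-0.28, adjusted p = 0.0137 by edgeR) or the second NRRA library (-0.27, adjusted p = 0.0351 by edgeR), and stood at -0.11 when scaled by library size alone and without the first Veh library, and at -0.12 without the first NRRA library. None of these genes moved as far as Rec8, and none in the condensin list as far as Stag3.

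**Figure D4:**
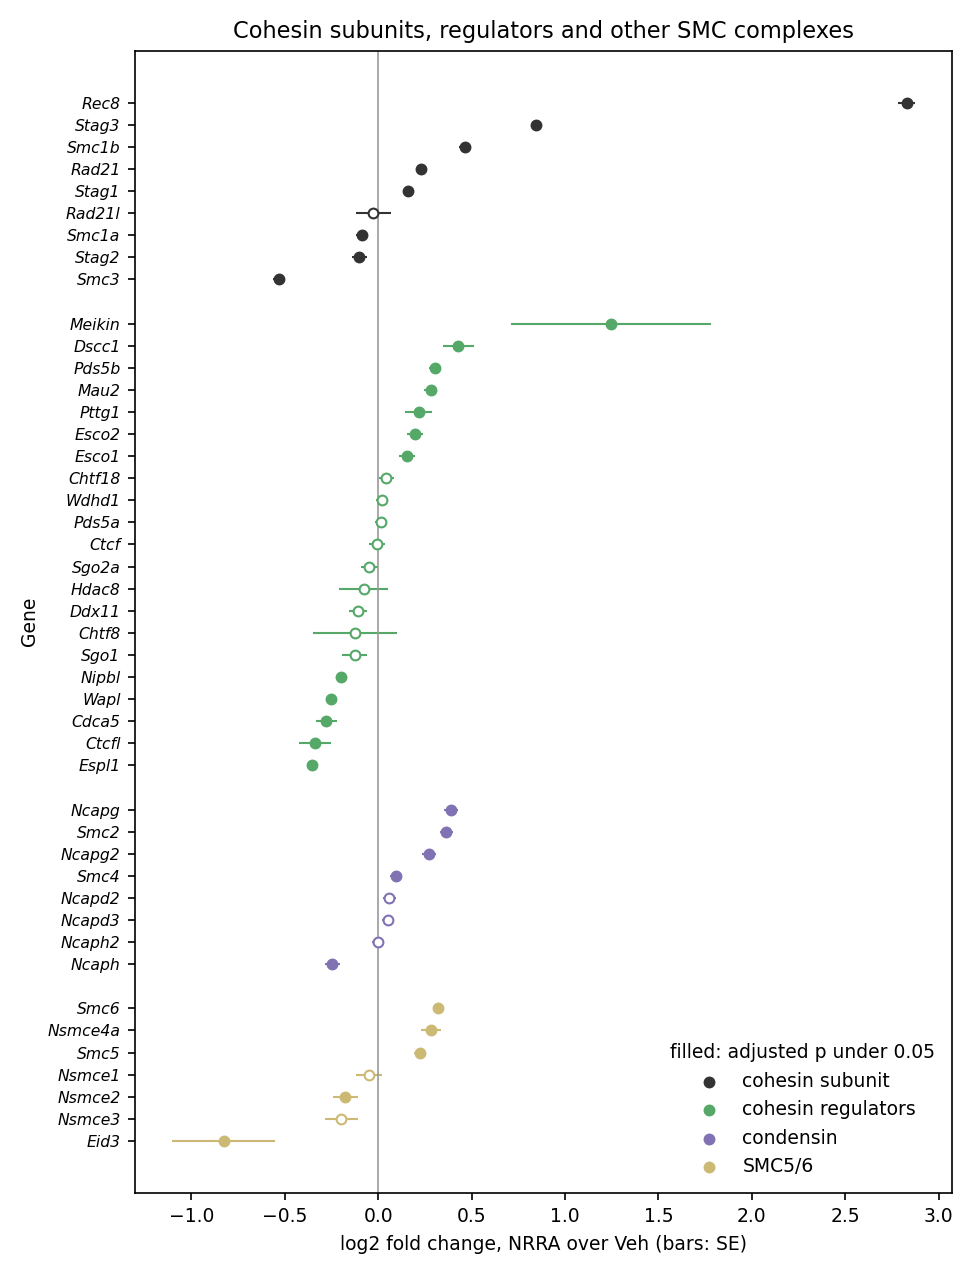
Log2 fold change, NRRA over Veh, with SE bars for the 9 cohesin subunits and for all tested genes of the cohesin regulator, condensin and SMC5/6 lists, with filled points where the adjusted p was under 0.05. Rec8 lies at 2.83 and Stag3 at 0.84, Smc3 lies at -0.53, and the wide bar of Meikin spans an SE of 0.53 on either side of 1.25.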

How the data were processed

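The authors deposited raw counts per gene for 4 libraries, and these counts are whole numbers that were not normalised. The submitters' processing notes name bcl2fastq, STAR 2.6.1c, featureCounts 1.6.4 and mm10. Libraries were made from mRNA captured with oligo-dT, with a stranded Tecan kit in the methods but an Illumina TruSeq kit in the labels. The strand setting and annotation release of the counting are not given in the sources used here, so reads of overlapping genes could be split in ways that change single genes. The study treated cultures for 2 days and tested with DESeq2. Groups and replicate numbers came from the titles, and the columns, whose Veh numbers are 1 higher, were matched to samples by their descriptions.

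NRRA was compared with Veh with edgeR 4.0.16 in R 4.3.3 (filterByExpr, TMM, robust quasi-likelihood test, Benjamini-Hochberg over all genes tested, threshold 0.05) and the code was tested on simulated data. CPM use TMM-scaled library sizes, and log2 CPM a prior count of 2. Totals were 28022265 and 30715160 counts for Veh and 31604769 and 29214798 for NRRA, and intervals beyond the spread between libraries were not computed. DESeq2 1.42.0, other scalings, filters, prior counts and lengths and leaving out each library were alternatives. Coordinates and lengths came from GENCODE M21, which held 99.7% of the gene identifiers, near-identical stretches (at least 95% identity over 100 bases) from BLAST 2.17.0, and promoters from RefSeq. Named genes were the 9 members, the 3 highest and 3 lowest of each list, Nipbl, Wapl, Cdca5, Sgo2a, Espl1, Meikin, Ctcfl, Stra8 and the 3 nearest patterns of each meiotic subunit. Mau2 and the marker genes were named after their values were seen. The members, lists and tests were chosen with earlier results of these data known.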

Additional observations from a re-analysis of the deposited data

How the results depend on the processing

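All 6 ratios between subunits kept their direction in all 12 values with every library and all 24 without 1 library. The 24 could not turn, because every combination of an NRRA with a Veh library already had the same sign. The 12 use the same counts with another prior count or with DESeq2 fold changes. Rec8, Stag3, Smc1b, Rad21, Stag1 and Smc3 kept their calls under every alternative. With scaling by library size alone, 60.3% of all calls were higher instead of 49.6%, and the log2 fold change was 0.063 for Rad21l, 0.0024 for Smc1a, -0.012 for Stag2, 0.042 for Sgo2a and 0.087 for Ncaph2, which was then called higher (adjusted p = 0.0204 by edgeR). Without the filter on low counts it was -0.094 for Stag2, -0.080 for Smc1a and 0.0049 for Ncaph2, and with DESeq2 -0.10 for Stag2 and -0.086 for Smc1a. These 3 settings each left 1 cohesin subunit called lower. Library size alone gave 7 condensin genes higher and 1 SMC5/6 gene lower, and DESeq2 gave 0 SMC5/6 genes lower after adjustment and 1, Eid3, at an unadjusted p under 0.05. Without 1 library the values ran from -0.068 to 0.017 for Rad21l, -0.12 to -0.077 for Stag2, -0.10 to -0.074 for Smc1a and -0.0077 to 0.0012 for Ncaph2, and counts from 1 to 2 subunits lower, 4 to 6 regulators higher and 0 to 3 SMC5/6 genes lower. The causes were not tested.

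With the longest transcript as length, the shares in Veh and NRRA were 8.65% and 36.8% for Rec8, 7.68% and 4.52% for Rad21l, 57.5% and 69.7% for Stag3 and 50.1% and 59.6% for Smc1b. Over all genes, 4529 to 6962 were called higher and 4593 to 5836 lower.

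Replicate numbers were those of the titles. The column names number the Veh libraries 2 and 3 and the NRRA libraries 1 and 2, so the pairing below rests on the titles alone. The deviations of same-numbered libraries from their group means correlated at -0.011, so this numbering showed no pairing. Whether libraries share a culture or a run was not tested. With the number as a replicate block, 5772 genes were higher and 5836 lower, the log2 fold change of Rec8 was 2.83, no cohesin subunit changed its call, Meikin lost its call (adjusted p = 0.0543 by edgeR) and Nsmce3 gained one (adjusted p = 0.0450 by edgeR).

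With 2 libraries a group, no permutation test can pass 0.05. Counts per gene do not tell isoforms apart, and the lowest genes (Meikin, Eid3) are limited by depth.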
